A study of Mus musculus with 9 samples.

Results

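Downstream distal regions were the accessible regions that lie more than 10 kb and at most 100 kb downstream of the transcription start site (TSS) of a coding gene. They were selected from a list of open chromatin in the pharyngeal mesoderm and heart of wild-type mouse embryos at embryonic day 8.75, the 6-somite stage. A region was a member when its assigned RefSeq transcript was a curated coding one (an accession starting NM_) and its deposited distance to that start was within those limits. The rule gave 1916 members of 17164 distinct regions (11.2%). Distances of members ran from 10005 to 99952 bp, and the coding regions just outside the limits lay at 9974 and 100040 bp.

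The study profiled 9 ATAC-Seq libraries, 3 each from wild-type control, Isl1-/- and Isl1Cre+/-/ Brg1fl/fl embryos, to examine how open chromatin depends on Isl1, a LIM-homeodomain factor, and on Brg1, the ATPase of a nucleosome remodeler. In the last genotype, Cre under the Isl1 locus deletes Brg1 in Isl1-expressing cells. The values used here were 1 list of regions common to the 3 wild-type libraries, without height, score or any value per library. The mutant groups were not analysed here, so genotypes were not compared, replicate error could not be given, and the sequencing depth is unknown. Intervals beside shares are 95% Wilson intervals and reflect the counting of regions alone. A region at any distance was listed for 10353 of 21031 coding genes, for 23 of 34 cardiac transcriptional regulators, 11 of 26 contractile genes, 15 of 20 endothelial genes and 5 of 14 blood genes. It was also listed for 24 of 26 neural adhesion genes, 14 of 24 neural regulators and 14 of 15 housekeeping genes, so these counts do not check the tissue label.

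ATAC-Seq uses a transposase that inserts adapters preferentially into DNA not wrapped in nucleosomes. Away from promoters, such open stretches are where transcription factors bind enhancers, insulators and unannotated promoters, and an enhancer can act on a gene other than the closest one. Downstream of a start, a distal element can lie in an intron of its own gene, beyond the end of a short gene, or inside a neighboring gene. In the second heart field, the progenitor pool of pharyngeal mesoderm that adds cells to the heart, introns and gene deserts around developmental regulators are known to hold many such elements.

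The central 300 bp of 6 members are printed to show what the windows searched for motifs hold. Sequences are on the plus strand of NCBIM37 (the same assembly as mm9), and capitals mark matches, on either strand, to the 7 motifs that were more frequent in centers than in flanks (values below). The first 3 belong to list genes, with 3 different motifs in the Spry1 and Lhx2 windows and 2 in the Meis2 window, as in several other list members, and the last 3 are the centers of the widest members at an annotated start of their own gene. The Spry1 window (chr3:37556025-37556324) held TEAD, SOX and Sp/Klf matches, the SOX and Sp/Klf letters overlapping. The Lhx2 window (chr2:38279983-38280282) held Sp/Klf, E-box and SOX matches, and the Meis2 window (chr2:115846374-115846673) held SOX and TEAD matches. The Gipc2 window (chr3:151769205-151769504) held TEAD matches only, and the Foxn3 (chr12:100630938-100631237) and Fam49b (chr15:63829398-63829697) windows held Sp/Klf matches in CpG-dense sequence.
Spry1: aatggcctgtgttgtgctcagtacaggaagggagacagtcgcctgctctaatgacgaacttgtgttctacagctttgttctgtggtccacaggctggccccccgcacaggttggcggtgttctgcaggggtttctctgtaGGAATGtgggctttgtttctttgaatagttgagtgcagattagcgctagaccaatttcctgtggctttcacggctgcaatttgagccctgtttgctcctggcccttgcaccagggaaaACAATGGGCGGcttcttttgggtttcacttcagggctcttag
Lhx2: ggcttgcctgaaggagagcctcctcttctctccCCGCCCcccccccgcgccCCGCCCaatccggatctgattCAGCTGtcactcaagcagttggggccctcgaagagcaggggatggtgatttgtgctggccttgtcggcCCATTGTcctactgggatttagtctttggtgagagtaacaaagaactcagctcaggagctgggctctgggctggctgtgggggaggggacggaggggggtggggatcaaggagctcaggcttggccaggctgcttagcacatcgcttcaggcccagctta
Meis2: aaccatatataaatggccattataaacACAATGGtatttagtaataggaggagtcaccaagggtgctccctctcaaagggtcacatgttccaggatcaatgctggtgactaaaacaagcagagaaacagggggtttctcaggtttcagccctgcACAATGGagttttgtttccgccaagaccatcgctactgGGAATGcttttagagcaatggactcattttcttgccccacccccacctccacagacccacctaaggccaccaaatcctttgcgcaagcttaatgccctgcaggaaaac
Gipc2: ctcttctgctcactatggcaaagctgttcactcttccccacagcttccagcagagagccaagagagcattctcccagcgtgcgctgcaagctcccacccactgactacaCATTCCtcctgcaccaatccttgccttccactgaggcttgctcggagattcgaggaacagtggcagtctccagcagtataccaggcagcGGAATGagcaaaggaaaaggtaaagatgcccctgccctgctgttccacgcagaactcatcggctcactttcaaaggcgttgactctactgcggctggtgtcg
Foxn3: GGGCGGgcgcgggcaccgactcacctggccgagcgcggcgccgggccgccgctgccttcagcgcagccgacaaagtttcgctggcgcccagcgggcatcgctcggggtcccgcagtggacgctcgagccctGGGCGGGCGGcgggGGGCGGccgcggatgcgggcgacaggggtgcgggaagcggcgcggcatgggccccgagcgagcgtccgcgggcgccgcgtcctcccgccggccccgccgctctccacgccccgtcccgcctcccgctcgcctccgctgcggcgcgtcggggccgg
Fam49b: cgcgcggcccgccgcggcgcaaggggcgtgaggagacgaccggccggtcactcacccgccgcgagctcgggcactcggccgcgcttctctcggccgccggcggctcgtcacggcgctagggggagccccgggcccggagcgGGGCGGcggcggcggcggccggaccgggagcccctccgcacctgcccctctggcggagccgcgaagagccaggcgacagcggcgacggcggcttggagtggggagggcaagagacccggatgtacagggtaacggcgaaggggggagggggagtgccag

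The place of a member was taken from its midpoint. The midpoint of 1008 members (52.6%, interval 50.4 to 54.8%) was in an intron, that of 652 (34%, interval 31.9 to 36.2%) was intergenic, that of 169 (8.82%, interval 7.63 to 10.2%) was within 1 kb of an annotated transcript start, and that of 87 (4.54%, interval 3.7 to 5.57%) was in an exon. Of all sequence 10 to 100 kb downstream of its nearest coding start, introns made up 57.1% and intergenic sequence 38.3%, while 48.8 and 42.2% of the regions there lay in them, so the share of introns was no higher than that of the sequence. Together the members covered 1.89 Mb and were assigned to 1590 genes. Members were 376 to 5416 bp wide, with a median of 936 bp and quartiles of 778 and 1123 bp. Median GC content was 48.4% (interquartile range 44.8 to 52.4%) and the median CpG frequency was 1.42 per 100 bp (interquartile range 0.883 to 2.19). MACS extended each tag by a fixed length, so widths include that extension.

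Relative to their own gene, members fell into 2 main kinds. Of 1892 members whose gene was found in the annotation, 963 (50.9%, interval 48.6 to 53.1%) were in an intron of that gene and 825 (43.6%, interval 41.4 to 45.8%) were past its 3′ end. A further 88 were in one of its exons, 40 of them in coding sequence and 48 in untranslated or noncoding exons, and 16 lay before the annotated gene body. Genes with a member inside were long, with a median length of 111 kb over 872 genes. The median was 15.7 kb over 725 genes with a member past the end and 15.4 kb over all 22380 annotated coding genes. Since a member must lie over 10 kb from the start, a shorter gene can hold one only past its end, and the median over the 13506 coding genes longer than 10 kb was 33.7 kb. Members past the end lay a median of 19.8 kb beyond it (interquartile range 8.86 to 38.5 kb). Of these, 235 (28.5%, interval 25.5 to 31.7%) were within 10 kb of the end and 170 (20.6%, interval 18 to 23.5%) were inside another gene, 146 of them inside another coding gene.

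Intronic members were spread over introns about as the intronic bases were. Of 915 members in a numbered intron, 366 (40%) were in the first, 183 (20%) in the second, 110 (12%) in the third and 256 (28%) in a later one. The same 771 transcripts had 38.1%, 20.7%, 10.3% and 30.8% of their intronic bases, counted from 10 to 100 kb downstream, in those introns. Density ranged from 16.1 members per Mb in later introns to 20.7 per Mb in the third.

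The amount of territory on each side of the starts was taken into account by assigning every 100th base of the genome, and every region, to the nearest annotated coding start. On this scale 2088 regions lay 10 to 100 kb downstream, or 3.55 per Mb of 587.6 Mb, and 1960 lay upstream, or 3.79 per Mb of 516.9 Mb. Downstream intergenic sequence held 3.92 regions per Mb, downstream introns 3.04 and sequence within 1 kb of any start 14.8. In downstream intergenic sequence the density was 4.46 per Mb at 10 to 20 kb and 3.55 per Mb at 50 to 100 kb, and in downstream introns it was 2.93 and 3.31 per Mb. These densities are a description without a test.

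**Figure D1:**
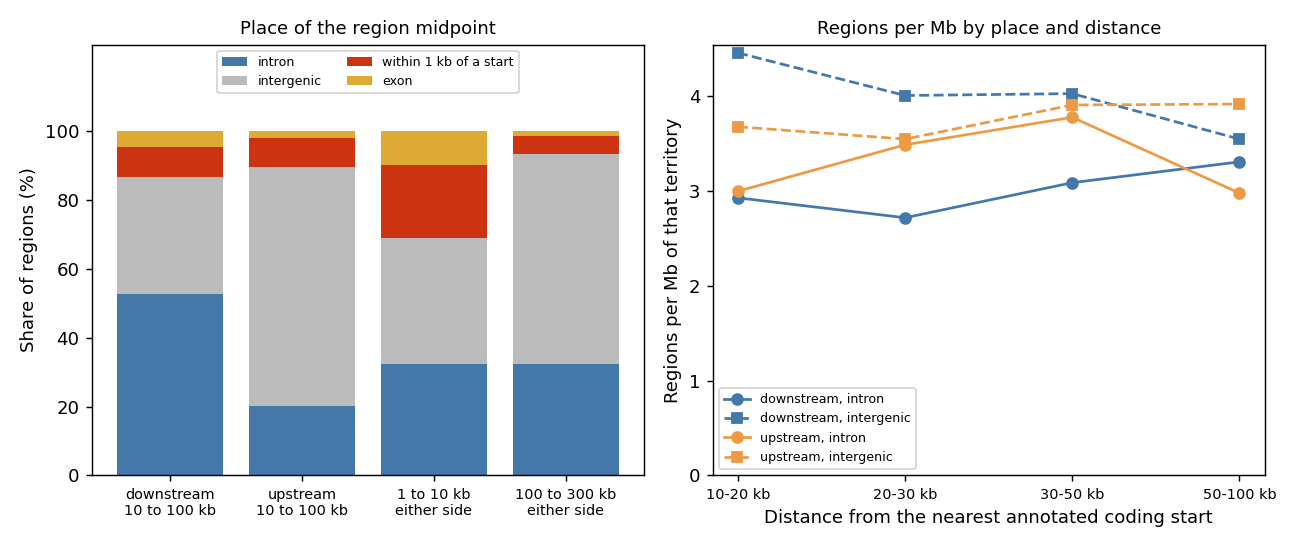
Left, share of regions (%) whose midpoint is in an intron, intergenic, within 1 kb of a start or in an exon, for downstream and upstream distal regions and for 2 other distance classes. Right, regions per Mb of intronic and intergenic territory at 4 distance ranges on each side of coding starts. Introns take 52.6% of downstream and 20.2% of upstream distal regions, whereas densities per Mb of the 4 kinds of territory lie between 2.72 and 4.46.

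Downstream distal regions were compared with upstream ones (1567 regions), with regions 1 to 10 kb from a coding start (1126) and with regions 100 to 300 kb away (1387). The list gives no value per library. The difference was therefore taken on each of the 19 autosomes and tested with a two-sided exact sign test. Benjamini-Hochberg adjustment was over 18 tests. Chromosomes are not replicate embryos, and the smallest p this test can give is 3.81e-06.

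The midpoint was inside some gene for 64.6% of downstream and 27.8% of upstream distal regions, a difference of 36.2 ± 12.1 percentage points (mean and SD over 19 autosomes). The rule itself places downstream regions on the side of the gene body, so this is a description and no p is given for it. Introns made up 57.1% of downstream and 30.3% of upstream sequence at 10 to 100 kb from the nearest coding start, and held 48.8 and 26.1% of the regions there. The share at an annotated start was 8.82 and 8.42%, and the share whose gene also had a region within 1 kb of its TSS was 60 and 59.2% (adjusted p = 1 for both, exact sign tests). Median width was 936 bp downstream and 957 bp upstream, lower downstream on 13 of 19 autosomes (adjusted p = 0.188, exact sign test). Median GC was 48.4 and 48.2% (adjusted p = 0.0817, exact sign test), and median CpG was 1.42 and 1.51 per 100 bp, lower downstream on 14 of 19 autosomes (adjusted p = 0.0817, exact sign test). None of the last 5 differences passed the threshold of 0.05, although width and CpG passed it under some of the alternatives given at the end.

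Composition followed the distance from the start. Members had a lower GC content than regions 1 to 10 kb away (48.4 against 52.1%, lower on 19 of 19 autosomes, adjusted p = 1.14e-05, exact sign test) and a higher one than regions 100 to 300 kb away (45.6%, higher on 19 of 19, adjusted p = 1.14e-05, exact sign test). CpG frequency ran in the same order, at 2.55, 1.42 and 1.06 per 100 bp, with the same counts of autosomes, although the difference from the farther regions did not pass among the wider regions of the list alone. The composition of all sequence at these distances was not measured, so its part in these differences was not tested. Members were also narrower than the closer regions, by 98.2 ± 78.2 bp, on 17 of 19 autosomes (adjusted p = 0.00146, exact sign test), and their width of 936 bp was near the 920 bp of the farther ones (adjusted p = 0.0817, exact sign test). The share at an annotated start fell from 21% at 1 to 10 kb to 8.82% in members and 5.19% at 100 to 300 kb. The classes are set by distance from a start, so this order can follow in part from the rule and no p is given for it. Counted over regions, the assigned gene had a promoter region for 60% of members, 35.2% of the closer regions and 68.3% of the farther ones. Promoter regions are defined by the same deposited distance, whose size sets these classes apart. These shares are therefore a description and no p is given for them.

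Within the members the same measures varied with distance, given here without a test. Median GC was 49.8% in the 443 members at 10 to 20 kb and 47.6% in the 694 at 50 to 100 kb, and the share inside the assigned gene was 64.8 and 49.4%. Median width differed little over these ranges, from 918 to 952 bp. Intronic members had a median CpG frequency of 1.22 per 100 bp, intergenic ones 1.58 and exonic ones 1.85.

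Members were present on every autosome and on X. Their density over the 19 autosomes was 0.769 ± 0.122 per Mb (mean and SD), lowest on chromosome 19 (0.482) and highest on chromosome 2 (0.947), and X carried 39 members or 0.241 per Mb. As a share of all regions of a chromosome, members made up 7.2% on X, 7.53% on chromosome 19, 11.6% on chromosome 2 and at most 13.4%, on chromosome 6. The gap from a member to the nearest region of any kind had a median of 33950.5 bp, and 212 members (11.1%) had a neighbor within 10 kb. These gaps were not compared with those of other regions. The rule also keeps members more than 10 kb from their assigned start, so the gaps are a description.

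The 169 members near an annotated start stood out in composition. Their median width was 1094 bp and their median CpG frequency 2.95 per 100 bp, compared with 904 bp and 1.22 per 100 bp in intronic members. In 83 of the 169 the start was of the assigned gene, that is, of a transcript beginning downstream of the deposited one, and in 86 only of other genes. Those 86 comprised 39 at a start of another coding gene, 24 at a long intergenic noncoding RNA or processed transcript, 15 at a small nuclear, small nucleolar or microRNA, and 8 at a pseudogene or immunoglobulin segment. Starts of other coding genes included that of Camta1, a calmodulin-binding transcription factor, with 2 members assigned to Gm13090, and that of Phactr3, a regulator of protein phosphatase and actin, with 1 assigned to Sycp2. Small nuclear RNA starts included U2 at members assigned to Slfn14, Rdm1 and Trappc6b. These examples were chosen after their values were seen.

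A CpG-rich sequence was defined as one with GC over 50% and an observed to expected CpG ratio over 0.6. It was found in 113 members (5.9%, interval 4.93 to 7.04%), against 73.3% of the 8765 regions within 1 kb of a coding start. The share was 7.98% in upstream distal regions, 21% at 1 to 10 kb and 3.03% at 100 to 300 kb. Of the 113, 41 (36.3%, interval 28 to 45.5%) were at an annotated start, and 72 were CpG rich away from one. The 5 widest members at an own start showed both kinds. Foxn3, a forkhead repressor, had one of 2225 bp with 8.04 CpG per 100 bp, Fam49b one of 1778 bp with 8.1, and Rps6ka6, a ribosomal S6 kinase on X, one of 1696 bp with 6.25. Gipc2, a PDZ-domain adaptor, had one of 2626 bp with 2.63 CpG per 100 bp and Etl4 one of 1709 bp with 1.35. The first 3 were thus denser in CpG than the other 2.

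The widest members of all were of another kind. In the 5416 bp member in an intron of Atp6v1h, a subunit of the vacuolar proton pump, 89.8% of the 31-mers occurred more than once in the genome. Copies within the same member count here, and no mapping quality filter is stated. Intergenic members of 3713 bp assigned to the odorant receptor gene Olfr1423, of 3357 bp assigned to the interferon-induced GTPase gene Irgm1 and of 2866 bp assigned to Abt1 had 4.67, 7.6 and 10.6% repeated 31-mers. The fifth widest, 2791 bp in the first intron of Elmo1, which promotes Rac activation, had 0%. Over all members, 47 (2.45%) had more than 50% repeated 31-mers.

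**Figure D2:**
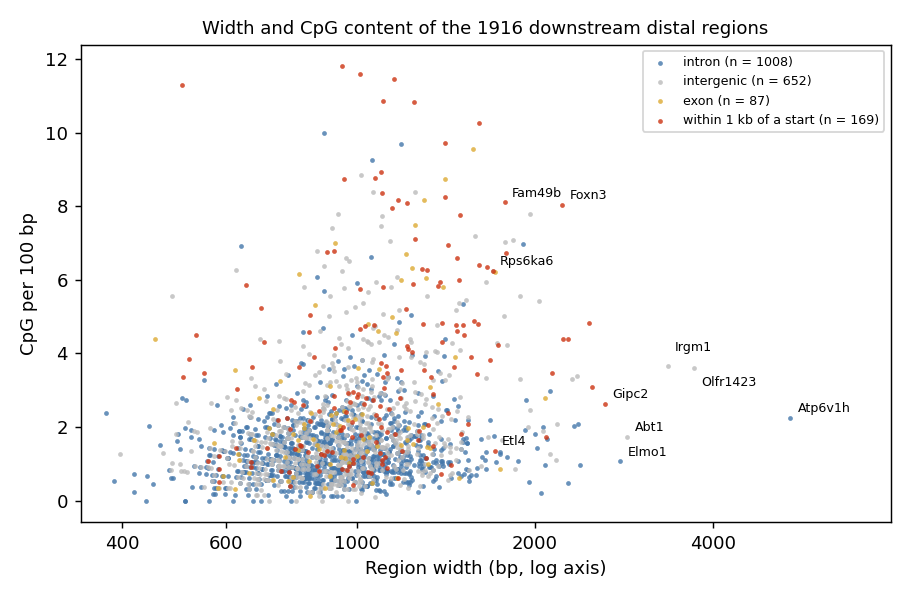
Width (bp, log axis) and CpG per 100 bp of each of the 1916 members, colored by place. Most points lie below 1123 bp and 2.19 CpG per 100 bp, members within 1 kb of a start reach 11.8 CpG per 100 bp, and the labeled points are the 5 widest members and the 5 widest at an own start.

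Of the 1590 genes with a member, 1330 (83.6%) had 1, 210 had 2, 35 had 3, 14 had 4 and 1 had 5. A region within 1 kb of the TSS was also listed for 923 of them (58.1%), and for 465 (29.2%) the members were the only regions of the gene in the list. The absence of a promoter region in a list common to 3 libraries does not show a closed promoter.

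The gene with the most members was Tgif1, which encodes a homeodomain repressor of TGF-β and retinoid signaling. Its 5 members lay 52.3, 65.4, 74.3, 91.5 and 98.7 kb downstream of the start, and all were inside Dlgap1, a postsynaptic scaffold gene. No region lay within 1 kb of the Tgif1 TSS. The same arrangement held for Lamp5, of the lysosome-associated membrane protein family, whose 4 members at 49.7, 50.9, 66.6 and 91.8 kb were in introns of Pak7, a p21-activated kinase gene, 37.8 to 79.8 kb past the Lamp5 end.

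Gli3 and Pknox2 held their 4 members within their own introns. Gli3, a transcriptional effector of Hedgehog signaling, had members at 23.9, 41.2 and 78.5 kb in intron 2 and at 93 kb in intron 3. Pknox2, a TALE homeodomain gene, had members at 40.1, 46.1, 54 and 93 kb. It had no other region in the list.

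Tle1, a Groucho corepressor, had members at 40.6, 54.6 and 78 kb inside the gene and at 96.6 kb past its end. Spsb4, a SOCS-box adaptor of ubiquitin ligases, had members at 28.5, 35.6, 37.5 and 59.9 kb, all intronic. Members assigned to Ccnl1, a cyclin linked to splicing, lay at 28.4, 86.5, 96.7 and 99.1 kb, and those assigned to Trim27, a RING-finger ubiquitin ligase, at 20.4, 35.6, 42.6 and 54.3 kb. Both sets were intergenic and past the end of the gene.

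Tex14, a gene of the germ-cell intercellular bridge, stood apart from the genes above. Its 4 members, at 15.8, 21.2, 34.9 and 43.9 kb, were each within 1 kb of an annotated start of a U3 small nucleolar RNA, which acts in ribosomal RNA processing. Between 38.9 and 74.8% of their 31-mers occurred more than once in the genome, and the part of reads shared between copies was not tested.

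**Figure D3:**
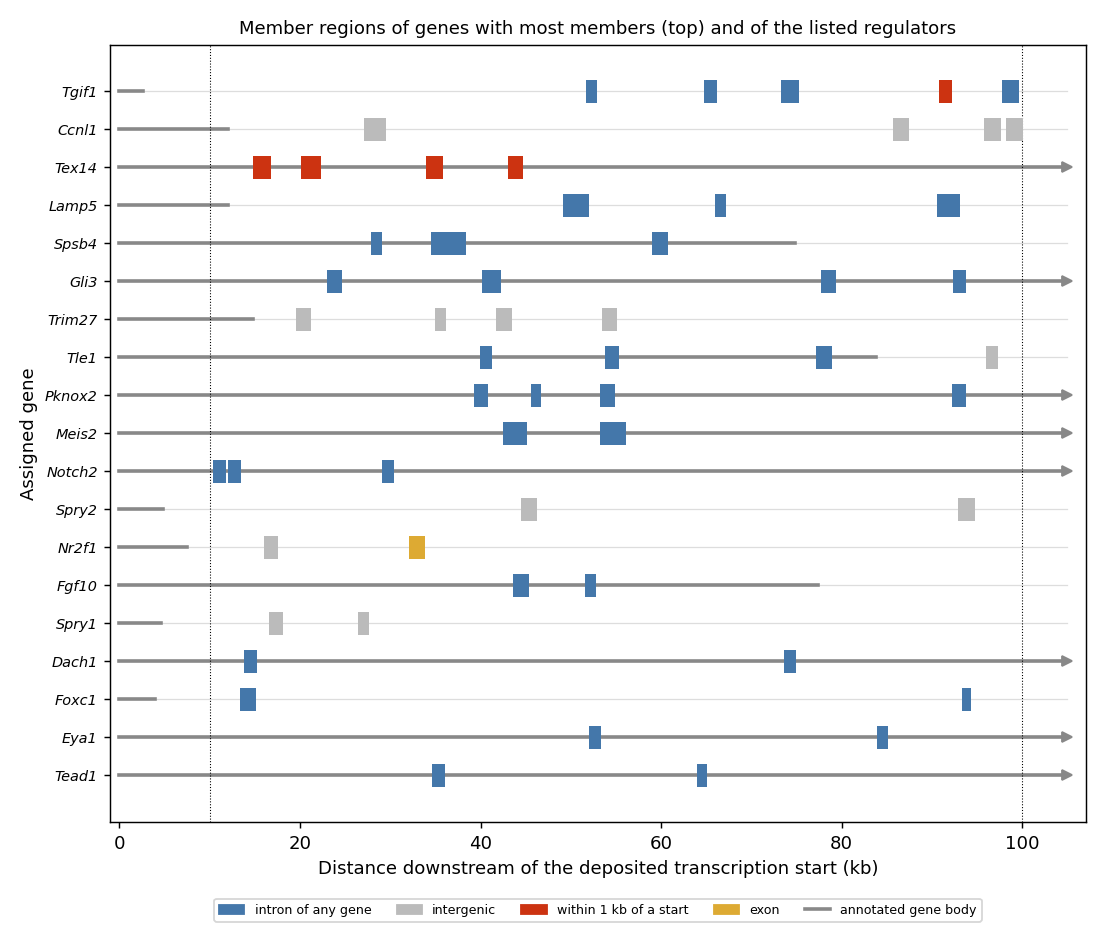
Position of each member (kb downstream of the deposited TSS, drawn to width with a minimum added for visibility) for 9 of the 10 genes with most members and for the listed regulators described in full. Gray lines are annotated gene bodies, and an arrowhead marks a body reaching past the axis. The Tgif1, Lamp5 and Foxc1 members lie past the end of a short gene in introns or at a start within a neighbor, and those of Gli3 and Pknox2 lie inside the gene.

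Among 3 lists of regulators relevant to the dissected tissue, 28 genes had 46 members, and 24 of the 28 also had a promoter region. The 7 cardiac transcriptional regulators of 34 included Mef2c, Isl1, Zfpm1, Meis2, Tead1 and Nfatc1. Isl1, the factor deleted in a mutant group, had 1 member, at chr13:117083462-117085423, 15.5 kb downstream of its TSS and 4.04 kb past its 3′ end. It was intergenic and 1962 bp wide, wider than the interquartile range of members, with 2.45 CpG per 100 bp, and its central 300 bp held none of the motifs searched. Mef2c, a MADS-box factor of muscle, had an intronic member at 10.4 kb, close to the lower limit.

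Meis2, a TALE homeodomain cofactor, had members at 43.8, 54 and 55.3 kb, all in intron 7 of its nearest annotated transcript, the first being 2099 bp wide. Tead1, the DNA-binding partner of Yap in the Hippo pathway, had intronic members at 35.4 and 64.5 kb. Zfpm1, a Gata cofactor, had a member at 12.4 kb and Nfatc1, a calcineurin-responsive factor of the endocardium, had one at 79.1 kb, both intronic.

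The 7 pharyngeal and branchiomeric regulators of 26 were Eya1, Dach1, Lhx2, Ebf1, Pax1, Foxc1 and Nr2f1. Eya1, a transcriptional coactivator with phosphatase activity, had members at 52.7 and 84.5 kb in introns 7 and 11. Dach1, a nuclear cofactor linked to Eya proteins, had members at 14.5 and 74.3 kb in its first intron. Foxc1, a forkhead factor of head mesoderm and vessels, had members at 14.3 and 93.8 kb, both in introns of the neighboring enzyme gene Gmds. Nr2f1, an orphan nuclear receptor, had one at 16.8 kb and one at 32.9 kb in an exon of Fam172a with 7.5 CpG per 100 bp, out of 13 regions assigned to the gene. The Lhx2, Pax1 and Ebf1 members were at 73.3, 91.1 and 78.9 kb.

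Signaling genes of the second heart field were the largest of the 3 sets, with 14 of 40 genes and 22 members. Among ligands, Fgf10, a growth factor made by second heart field cells, had intronic members at 44.5 and 52.2 kb. Bmp7, Jag1, Slit2 and Slit3 had 1 each, at 77, 42.2, 67.8 and 30.3 kb. Among receptors, Notch2 had members at 11.1, 12.7 and 29.8 kb, all in its first intron, and Robo1, Plxna2 and the retinoic acid receptor gene Rarb had 1 intronic member each. Among inhibitors, Spry1 had intergenic members at 17.3 and 27 kb and Spry2 at 45.3 and 93.8 kb, both genes encoding feedback inhibitors of receptor tyrosine kinases. The inhibitory Smad gene Smad7 had 1 in an exon of Ctif. Besides Gli3, the Hedgehog effector Gli2 had 1, in its first intron at 19.6 kb.

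Over all 21031 coding genes with a curated transcript, 7.45% had a member. In these 3 lists the share was 20.6% of cardiac transcriptional regulators, 26.9% of pharyngeal and branchiomeric regulators and 35% of signaling genes. Of coding genes with a region at any distance, 15.1% had a member, against 30.4, 38.9 and 51.9% in the 3 lists, in the same order. The lists are small and were chosen with earlier results of these data known, so the shares are a description. Long genes offer more sequence at 10 to 100 kb, and the part of gene length in the shares was not tested.

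Shares in the other lists ran from 0 to 38.5%. Neural adhesion and axon guidance genes had 10 of 26 (38.5%), among them Nrxn3, Cntnap2, Cdh2, Cdh4, Cdh11, Pcdh7, Efna5, Unc5c and Dcc. The presynaptic adhesion gene Nrxn3 had members at 31, 41.5 and 56 kb. The first was measured from another deposited start, and by position it lay downstream of the others, at chr12:90222089-90223618. The ephrin gene Efna5 had members at 18.4, 27.8 and 97.3 kb and the cadherin gene Cdh11 at 58.4 and 77.6 kb. Neural crest genes had 4 of 15 (26.7%), Tfap2b, Msx2, Ednra and Ednrb. The homeodomain gene Msx2 had its member at 10.4 kb and 4.54 kb past its end. Neural regulators had 5 of 24 (20.8%), among them Pax6, Sox1, Lmx1a and En1. The Pax6 members, at 38.5 and 97.1 kb, were in introns of Elp4, a subunit of the Elongator complex.

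Contractile and calcium-handling genes had 5 of 26 (19.2%), Ryr2, Nebl, Pdlim5, Palld and Slc8a1. The Slc8a1 member, 68.5 kb downstream of its deposited start, lay before the annotated gene body. The actin-bundling gene Palld had members at 17.5, 53.7 and 56.7 kb, each from a different deposited start, so these distances do not give their spacing. The nebulin-family gene Nebl had members at 30.2 and 60.8 kb and the Z-disc gene Pdlim5 at 42.6 and 73.5 kb. Extracellular matrix genes had 5 of 24 (20.8%), Col2a1, Col12a1, Fbn2, Fbln2 and Adamts9, and the cartilage collagen gene Col2a1 had 2, at 11.6 and 14.5 kb. Endothelial and endocardial genes had 4 of 20 (20%), Tek, Sox18, Npr3 and Nrg1, none with a region within 1 kb of the TSS. The remaining lists were near or below the share of all genes. They were endoderm genes (Foxa2, 1 of 13), housekeeping genes (Ywhaz, 1 of 15), subunits of the SWI/SNF remodeler (Arid1b, 1 of 24) and blood genes (0 of 14).

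**Figure D4:**
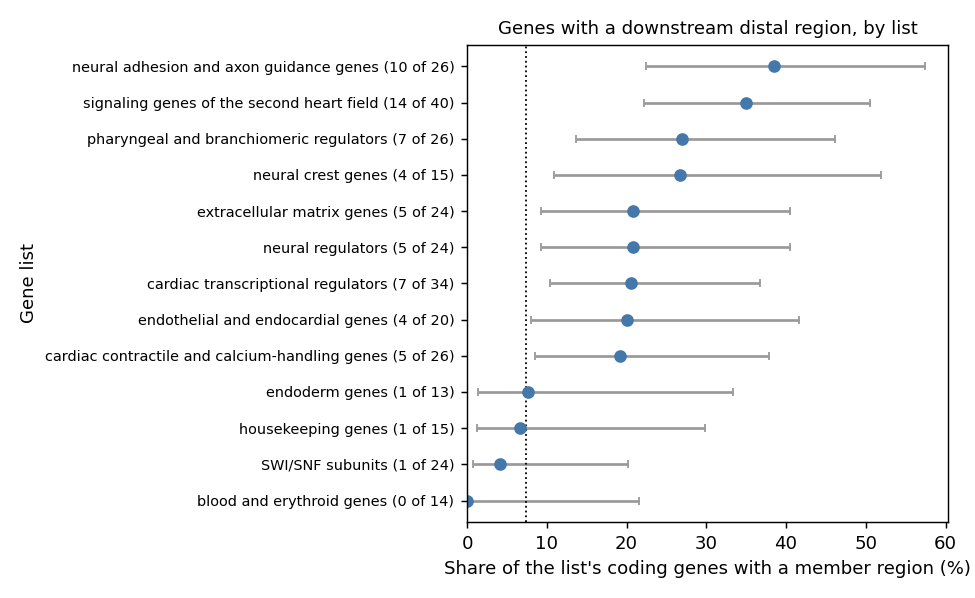
Share of each list's coding genes with at least 1 member (%), with 95% Wilson intervals, which cover counting over genes only. The dotted line is the 7.45% of all coding genes, and the highest point is 38.5% for neural adhesion and axon guidance genes.

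Motifs were searched on both strands in the central 300 bp of each member and in 300 bp windows centered 3 kb away on both sides, so that center and flank share gene and chromosome. A match means only that the letters occur in the window. The difference was tested over the 19 autosomes with a two-sided exact sign test, adjusted over 20 motifs. Another preset motif, NFI (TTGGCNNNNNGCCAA), occurred in 0 members and 0.0291% of all regions and could not be tested. Centers were richer in GC than flanks, at a median of 51.3 and 43.5%, and the part of this difference in the motif shares was not tested.

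A total of 7 motifs were more frequent in the center. The palindromic E-box bound by basic helix-loop-helix factors (CAGCTG) occurred in 521 members, 27.2% of centers and 13.1% of flanks, and in 19.5% of all 17164 centers. The Sp/Klf motif of GC-box zinc fingers (GGGCGG) occurred in 20 and 3.11%, with 45.7% over all regions, and the TEAD motif (GGAATG) in 22.7 and 15.3%, with 15.4% over all regions. CTCF, the insulator-binding factor (CCNNNAGGNGGCNG), had matches in 49 members, 2.56 and 0.261%, with 2.81% over all regions. These 4 were higher in the center on 19 of 19 autosomes (adjusted p = 1.53e-05, exact sign test).

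ETS (CCGGAA), whose letters overlap those of TEAD by GGAA, occurred in 7.57 and 2.77% (adjusted p = 0.000483, exact sign test) and in 17.6% of all regions. RFX (GTTNCCATG) occurred in 2.4 and 1.49% (adjusted p = 0.0119, exact sign test), with 1.66% over all regions, and SOX (ACAATGG) in 6.52 and 4.67% (adjusted p = 0.0283, exact sign test), with 4.31% over all regions. The RFX and SOX differences are small, 0.913 and 1.85 percentage points. RFX and ETS did not pass the threshold with 200 bp windows, and RFX and SOX did not with flanks 5 kb away.

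A total of 3 motifs of cardiac factors were less frequent in the center. MEF2 (TATTTATA) occurred in 0.365% of centers and 3.26% of flanks, lower on 19 of 19 autosomes (adjusted p = 1.53e-05, exact sign test), with 0.437% over all regions. The GATA motif, AGATAA, occurred in 14 and 17.2% (adjusted p = 0.0283, exact sign test), with 8.54% over all regions, and Nkx2 (CACTTGA) in 3.24 and 4.54% (adjusted p = 0.0425, exact sign test), with 2.46% over all regions. The GATA and Nkx2 differences did not pass with 200 bp windows, with flanks 5 kb away or without members at starts.

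The other 10 motifs did not pass. The LIM-homeodomain motif TAATTA occurred in 7.25 and 9% and the Isl1-type CTAATG in 10.2 and 10.9%, with 4.34 and 6.84% over all regions. The Hand and Twist E-box CATCTG was at 21.9 and 21.5% (15% over all regions), the nuclear receptor half-site AGGTCA at 17.6 and 18.5% (13.5%), AP-1 (TGANTCA) at 8.46 and 7.85% (5.55%), Meis (TGACAGNT) at 6.26 and 4.67% (4.58%) and forkhead (TGTTTAC) at 5.22 and 4.51% (3.58%). Pbx-Hox (TGATTNAT) was at 3.91 and 5.27% (2.39%), the SRF motif CCNTATNNGG at 1.57 and 1.62% (1.31%) and T-box (AGGTGTGA) at 0.887 and 1.46% (0.577%).

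**Figure D5:**
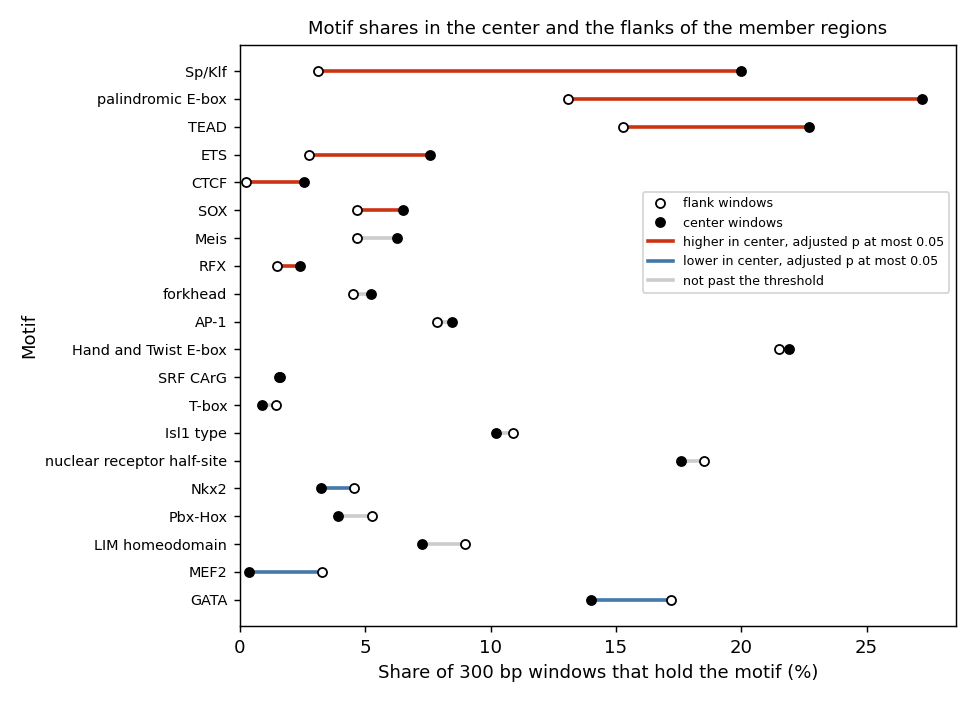
Share (%) of 300 bp center windows (filled) and flank windows (open) of members that hold each of 20 motifs, ordered by the difference. Red lines mark the 7 motifs higher and blue lines the 3 lower in the center at an adjusted p of at most 0.05, from Sp/Klf at 20 against 3.11% to GATA at 14 against 17.2%.

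To set the 6-letter motifs beside sequences of like composition, the ratio of center to flank share was ranked, as a description, among 6-letter sequences with the same number of G and C and, likewise, with or without a CpG. TAATTA had a ratio of 0.806, rank 1 of 36, where the median was 0.41. The GATA motif AGATAA had 0.815, rank 4 of 192, with a median of 0.571. CAGCTG had 2.08, rank 4 of 258, with a median of 1.3, and GGAATG had 1.48, rank 7 of 480, with a median of 0.992. GGGCGG had 6.44, rank 18 of 32, with a median of 6.62, and the ETS motif CCGGAA had 2.74, rank 43 of 234, with a median of 2.03. CTAATG ranked 48 of 450 with a ratio of 0.942, CATCTG 207 of 480 with 1.02 and AGGTCA 273 of 480 with 0.955. Among sequences of like composition, TAATTA and AGATAA were thus near the top although they were lower in centers than in flanks, and the Sp/Klf, CATCTG and nuclear receptor letters were nearer the middle.

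Motif shares also differed by place of the member, given without a test. Sp/Klf matches occurred in 39.1% of members at a start, 22.2% of intergenic and 14.7% of intronic ones. GATA matches occurred in 5.33, 12.3 and 17.1%, and TEAD matches in 15.4, 21.5 and 24.9%. CTCF matches were in 27 of 652 intergenic members (4.14%) and 17 of 1008 intronic ones (1.69%). The palindromic E-box varied least of these, from 25.4% at starts to 27.7% in introns.

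Downstream and upstream distal centers did not differ in any motif at the threshold (0 of 20 by exact sign tests, 1 with an unadjusted p under 0.05). That one was ETS, in 7.57% of downstream and 9.44% of upstream centers, lower downstream on 15 of 19 autosomes (adjusted p = 0.254, exact sign test). The palindromic E-box was at 27.2 and 21.4%, higher downstream on 14 of 19 (adjusted p = 0.254, exact sign test). Median GC of the centers was 51.3% on both sides.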

How the data were processed

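Pharyngeal mesoderm and hearts of mouse embryos were profiled by ATAC-Seq. Per the methods of the study, the authors used bowtie2 for mapping (mm9), filtered for primary alignments in proper pairs, discarded duplicates (Picard 1.136), called peaks per library (MACS14, fixed shift, no Tn5 offset stated), removed blacklisted peaks and kept regions common to the 3 control libraries (bedtools 2.15, overlap of at least 1 bp). The deposited values are positions and signed distances in bp, with no score or fold. The tool that assigned genes is not given for these regions in the sources used here.

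Identical rows were counted once, positions were taken as 1-based, and width was end minus start plus 1. Places and sequence came from NCBIM37 with GENCODE vM1, by midpoint. Of members with an annotated gene, 91.7% had a deposited start within 100 bp of an annotated one. Gene names were matched through RefSeq. Intron numbers refer to the annotated transcript with the closest start. Members and lists were chosen with earlier results of these data known. The genes named were the 10 with the most members, genes of 3 lists (12 in full), the 5 widest members, the 5 widest at an own start, and genes of the other lists. The results of some genes that this rule names are not reported here, and they remain in the counts. Scripts (Python 3.11.15, scipy 1.17.1, numba 0.67.0) were tested on simulated data.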

Additional observations from a re-analysis of the deposited data

How the results depend on the processing

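No paired analysis was possible because the libraries are pooled in 1 list with no value per library. For each change listed, the cause was not tested. Of 205 values recomputed under another setting, 163 gave the same call or stayed within their interval. The number of members was 1928 with all rows, 1916 after merging and stayed within 1.5 times under the other 2 definitions. By the nearest annotated start of the assigned gene, 1516 of the 1916 members were kept and 178 regions added. The other members lay outside the limits by that start or had no annotated gene. Against upstream regions, the width difference passed the threshold above 20 kb (-31.1 bp, adjusted p = 0.0288, exact sign test) and in wider regions (-50.7 bp), and CpG passed in wider regions (-0.498 per 100 bp) and without regions at starts (-0.107). Differences turned direction for GC above 20 kb (-0.049 percentage points) and, in wider regions, for GC (-0.688), the share at starts (-1.33), the share with a promoter region (3.04) and, against 100 to 300 kb, width (-24.9 bp), none past the threshold in either setting. Against 1 to 10 kb, the share inside a gene was 4.9 points higher in members, and 7.2 points higher up to 50 kb. Those closer regions lie on either side of a start and members only downstream, so this is a description. Against 100 to 300 kb, the difference in promoter share was -8.79 points in the main setting. It was -5.7 in wider regions, -7.66 without starts and -8.57 without repeats, given as a description. The CpG difference from the same regions no longer passed in wider regions (0.299). Motifs lower in the center numbered 1 (MEF2) in place of 3 with 200 bp windows, with flanks 5 kb away and without starts. Depth is unknown, so weakly open sites may be missing from the list.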

Other observations

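The wide intergenic members assigned to Olfr1423, Irgm1 and Abt1 led to a search, chosen after their values were seen and therefore not tested, for the B box of transfer RNA genes (GGTTCGANNCC), a promoter element inside genes read by RNA polymerase III. Nuclear tRNA genes are not among the gene types of the annotation used here. The letters occurred somewhere in 16 of 1916 members (0.835%, interval 0.515 to 1.35%) and in 10 of 3832 windows of the same widths moved by 3 kb to either side (0.261%). The share was 1.38% in regions within 1 kb of a coding start and 2.4% in those 1 to 10 kb away. It was 1.28% in upstream distal regions and 0.216% in regions 100 to 300 kb away, so only the last class was below the members. Of the 16 members, 13 were intergenic and 8 lay on chromosome 13, between positions 21291660 and 23546045, assigned to Trim27, Gpx5, Abt1 and Btn1a1. The Olfr1423 member of 3713 bp held 4 separate matches, and one of them is shown in 120 bp of the plus strand of NCBIM37 (chr19:12085507-12085626), where capitals mark overlapping matches on both strands.
Olfr1423: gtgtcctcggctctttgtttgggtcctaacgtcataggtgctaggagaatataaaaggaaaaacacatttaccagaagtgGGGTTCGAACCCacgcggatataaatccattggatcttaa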
